A study of Canis lupus familiaris with 62 samples.

Results

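The genes ENSCAFG00000010955 on chromosome 27 and ENSCAFG00000000223 on chromosome 10 are 2 of 30951 genes counted in 62 canine meningiomas, tumours of the membranes that cover the brain. They were chosen by their measured difference in counts between intact and neutered dogs, being higher in intact dogs, so that difference is described below and not tested. The deposited counts name no genes, and the identifiers matched 0 entries of the name table at hand. What the proteins do is therefore not described, and the genes are called the chromosome 27 gene and the chromosome 10 gene.

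Each library came from 1 dog's tumour, archived in formalin and paraffin between 2011 and 2022 after biopsy at surgery or after death. The labels list 27 untreated dogs, 7 given a steroid, 3 given only an anti-epileptic drug, 3 given radiotherapy (RT), 13 operated on (Sx) and 9 both operated on and irradiated (SxRT). All steroid dogs but steroid replicate 4 are labelled steroid/anti-epileptic. Of 31 females and 31 males, 7 dogs were intact: untreated replicates 1, 9 and 23, Sx replicates 9 and 11, and SxRT replicates 4 and 7. Among them only Sx replicate 9 was female, and no intact dog was in the steroid, anti-epileptic or RT group. Replicate numbers follow the order of deposit and only name dogs. The tumours were spontaneous, of 27 breeds or crosses, and the labels do not state when before sampling a dog was neutered or treated.

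Neutering removes the testes or ovaries, the main source of androgens, oestrogens and progesterone. These steroids enter cells and bind nuclear receptors that raise or lower the transcription of target genes. Progesterone receptor is known in many meningiomas of people and dogs, which is why sex and hormone status are of interest in this tumour. The labels used here give no hormone measurement.

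On CanFam3.1, the chromosome 27 gene lies at 27:19781557-19795078 on the plus strand, with 1252 exonic bases in 7 blocks. The chromosome 10 gene lies at 10:1565244-1575982, also on the plus strand, with 3874 exonic bases in 12 blocks, of which the last holds 1963 bases. In the file, 0 other genes overlapped either of them. All levels below are log2 CPM, a gene's counts relative to the size of its library, with a prior count of 2, a small number added so that a count of 0 has a value. A gene at 0 counts lies at -1.16 on this scale. Per kilobase of exon, the median level over the 62 libraries was 1.15 CPM for the chromosome 27 gene and 2.21 CPM for the chromosome 10 gene.

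Libraries held between 1967061 and 12063982 counts with a median of 4190135, and those of intact dogs between 3053049 and 8385232. The chromosome 27 gene had 1310 counts in all, with 47.9% of them in 3 libraries and fewer than 10 counts in 39 libraries. Both reads of a pair were counted, and 48 of its 52 counts above 0 were even, so that 2 counts mostly stand for 1 fragment. The chromosome 10 gene had 5370 counts, 38.4% of them in 3 libraries, and fewer than 10 counts in 7 libraries. Markers of meningeal or other cell types could not be matched to identifiers and were not analysed here. In such bulk tissue, fewer cells of a type and less RNA per cell cannot be told apart.

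The chromosome 27 gene was high in 3 of the 7 intact dogs and near the level of neutered dogs in the other four. It reached 6.14 in untreated replicate 9 (246 counts), 5.50 in Sx replicate 9 (158 counts) and 5.30 in SxRT replicate 4 (224 counts). The other intact dogs lay at 1.98 in untreated replicate 1, 1.21 in Sx replicate 11, 1.00 in untreated replicate 23 and -0.13 in SxRT replicate 7, with 2 to 15 counts each. The intact values therefore fell apart by more than 3 log2 units between the third and the fourth dog, and their median was the 1.98 of untreated replicate 1.

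In the 55 neutered dogs the chromosome 27 gene ran from -1.16 over a median of 0.87 to 4.11. It had 0 counts in 10 of them. A limit of 3 counts, for counting error only, stands for 0.444 to 1.14 CPM depending on the library. That limit treats counts as independent. Both reads of a pair were counted, so the level that 0 counts allow is higher than these values. The groups overlapped: 3 of 7 intact dogs lay above the highest neutered dog, 6 above the neutered median, and 43 of 55 neutered dogs at or above the lowest intact dog. The mean was 3.00 ± 2.56 (SD, n = 7) in intact and 0.89 ± 1.39 (SD, n = 55) in neutered dogs.

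The chromosome 10 gene was spread more evenly over the intact dogs. Its highest levels were 7.81 in Sx replicate 9 (790 counts) and 7.47 in untreated replicate 23 (913 counts). It then lay at 5.51 in Sx replicate 11, 5.31 in untreated replicate 9, 4.57 in SxRT replicate 4, 3.18 in untreated replicate 1 and 2.90 in SxRT replicate 7. Untreated replicate 23 and Sx replicate 11 thus had much chromosome 10 gene RNA beside a low chromosome 27 gene, and SxRT replicate 7 was the lowest intact dog for both genes.

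In neutered dogs the chromosome 10 gene ran from -0.01 over a median of 3.11 to 6.29. Of the intact dogs, 2 lay above every neutered dog and 6 above the neutered median, and 32 of 55 neutered dogs reached at least the lowest intact dog. The mean was 5.25 ± 1.91 (SD, n = 7) in intact and 3.05 ± 1.43 (SD, n = 55) in neutered dogs.

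**Figure D1:**
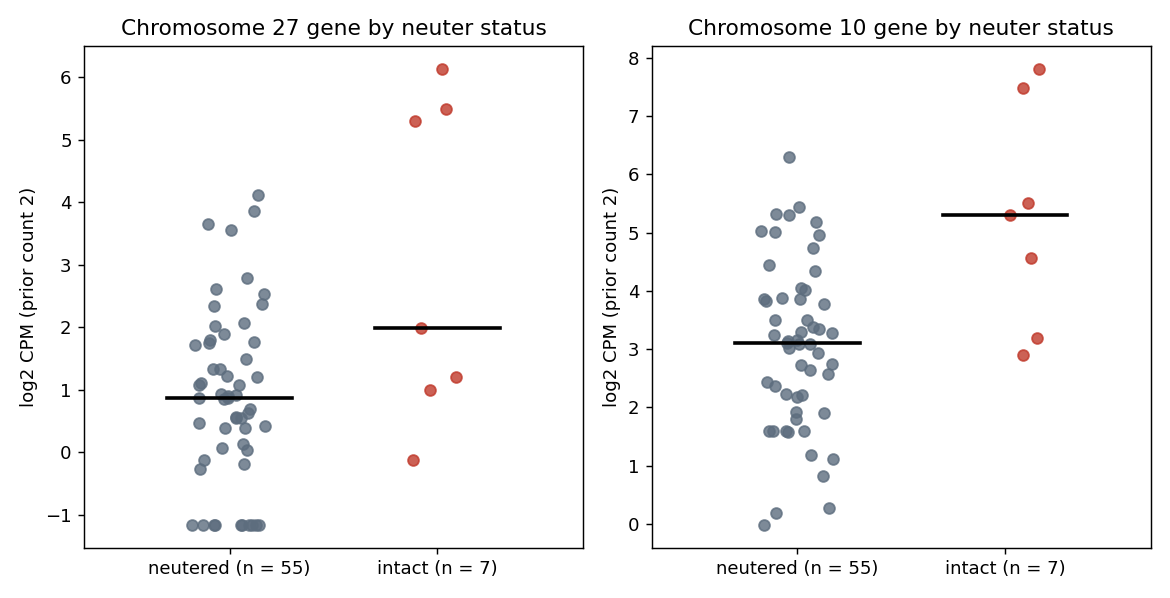
Level of each gene (log2 CPM, prior count 2, vertical axis) in 7 intact and 55 neutered dogs (horizontal axis), 1 point per dog, with a bar at the group median. For the chromosome 27 gene 3 intact dogs sit at 5.30 or above and the other intact dogs lie among the neutered; for the chromosome 10 gene the intact values run from 2.90 to 7.81.

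These are the values that chose the genes: with treatment and sex in an edgeR quasi-likelihood model of all 62 libraries, the log2 difference of intact against neutered was 3.39 (SE 0.667) for the chromosome 27 gene and 2.47 (SE 0.510) for the chromosome 10 gene. Both were among 8 called genes of 18370 tested, or 0.0435%, where called means an adjusted p under 0.05 (Benjamini-Hochberg). The 8 called genes were all higher in intact dogs, and the other six had larger fitted differences, from 3.87 to 5.36, at lower mean levels. The last gene inside the threshold had an adjusted p of 0.0402 and the gene just outside it 0.0502.

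The refits that follow use the dogs that chose the genes and are a description. The fitted difference of each gene kept its sign when any 1 intact dog was left out. Values ran from 2.84 to 3.62 for the chromosome 27 gene and from 1.73 to 2.65 for the chromosome 10 gene. The lowest values were those without untreated replicate 9 and without untreated replicate 23, respectively. The calls depended on single libraries: without untreated replicate 9, Sx replicate 9 or SxRT replicate 4, 0 genes were called in the whole table. Without untreated replicate 23 the chromosome 27 gene was called and the chromosome 10 gene was not. In males alone, where 6 dogs were intact, the differences were 3.65 and 2.69, and 0 genes were called. Sample names carry a number from 11 to 22 that the labels do not explain: the differences were 4.05 and 1.16 in names numbered 11 to 16 and 4.33 and 2.66 in those numbered 17 to 22, with 0 genes called in either.

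**Figure D2:**
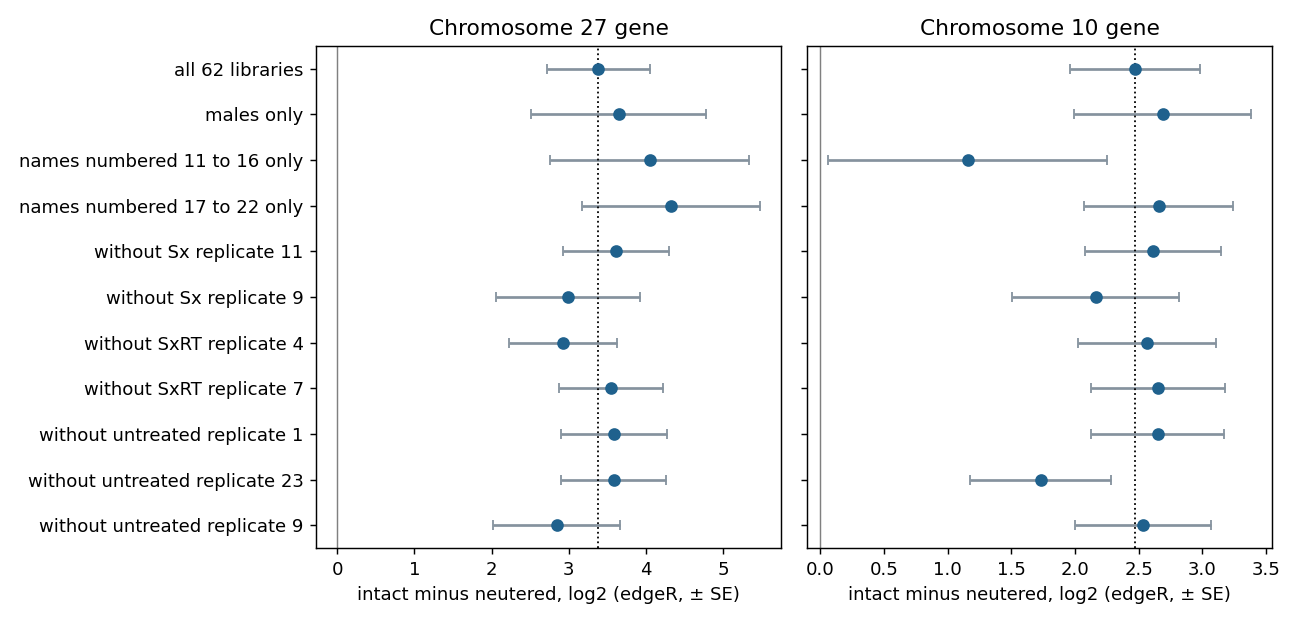
Fitted log2 difference of intact against neutered (horizontal axis, bars ± 1 SE) for each gene with all dogs, in males only, in names numbered 11 to 16 or 17 to 22, and without each intact dog in turn (vertical axis); the dotted line is the value with all dogs. All values lie above 0; the lowest are 2.84 for the chromosome 27 gene and 1.16 for the chromosome 10 gene.

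Some neutered dogs were as high as the middle of the intact dogs. For the chromosome 27 gene, 11 of 55 neutered dogs reached the intact median of 1.98. They were led by Sx replicate 8 at 4.11 (114 counts), Sx replicate 5 at 3.87 (50 counts), steroid replicate 5 at 3.65 (81 counts) and anti-epileptic replicate 2 at 3.56 (36 counts). The other seven, untreated replicates 7, 13, 15, 16, 20 and 27 and steroid replicate 7, lay between 2.03 and 2.79. None of the 3 RT dogs and none of the 7 neutered SxRT dogs reached that level.

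For the chromosome 10 gene, 3 of 55 neutered dogs reached the intact median of 5.31: Sx replicate 10 at 6.29 (257 counts), Sx replicate 5 at 5.44 (152 counts) and untreated replicate 21 at 5.32 (151 counts). Sx replicate 8 lay just under it at 5.29 (263 counts). Sx replicate 5 was the only neutered dog at or above the intact median of both genes. Among the 10 highest libraries of each gene, 3 were intact for the chromosome 27 gene and 4 for the chromosome 10 gene, and 4 libraries were in both lists: Sx replicates 5, 8 and 9 and untreated replicate 9.

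Both genes varied widely among dogs. The SD over the 62 libraries was 1.68 for the chromosome 27 gene, against a median of 1.34 for the 500 genes nearest to it in mean level, 75.6% of which varied less. It was 1.63 for the chromosome 10 gene, against 0.956, and 86.4% of its 500 nearest genes varied less. These SDs hold the intact dogs whose levels chose the genes, so part of the spread comes with the choice. In the 55 neutered dogs the SD was 1.39 for the chromosome 27 gene and 1.43 for the chromosome 10 gene. The nearest genes were not compared in neutered dogs alone.

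Female and male dogs overlapped for both genes. In neutered dogs the chromosome 27 gene was 0.67 ± 1.11 in 30 females and 1.14 ± 1.65 in 25 males (SD), and the chromosome 10 gene 3.07 ± 1.15 and 3.03 ± 1.73. In the edgeR quasi-likelihood model of all 62 libraries, the log2 difference of females against males was -0.75 (SE 0.538, adjusted p = 0.783) for the chromosome 27 gene and 0.18 (SE 0.408, adjusted p = 0.965) for the chromosome 10 gene. In that comparison 0.049% of all genes were called, and 0 of these 2.

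Across the 6 treatment labels the chromosome 27 gene had the highest median in RT and the lowest in SxRT, and all groups overlapped. RT dogs lay at 0.47, 1.34 and 1.71. Sx dogs ran from -1.16 over 1.21 to 5.50, and steroid dogs from 0.86 over 1.08 to 3.65. The lowest steroid dog was thus near the median of untreated dogs, and the steroid group was spread less than Sx.

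Anti-epileptic dogs lay at 0.69, 1.07 and 3.56. Untreated dogs ran from -1.16 over 0.87 to 6.14, with 6 of 27 at 0 counts, and SxRT dogs from -1.16 over -0.13 to 5.30, with 2 of 9 at 0. Each step between neighbours in the order RT, Sx, steroid, anti-epileptic, untreated, SxRT was smaller than the SD of either neighbour, the largest being 1.00 between untreated and SxRT.

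The chromosome 10 gene had its highest median in Sx and its lowest in RT. Sx dogs ran from 1.60 over 4.04 to 7.81. Anti-epileptic dogs lay at 1.91, 3.35 and 3.86, and untreated dogs ran from -0.01 over 3.25 to 7.47. The upper end of both larger groups was an intact dog.

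SxRT dogs ran from 1.60 over 2.90 to 5.03, steroid dogs from 2.18 over 2.73 to 5.01, and RT dogs lay at 0.19, 1.18 and 5.17. Neighbouring medians in this order differed by 0.10 to 0.69 except for the last step of 1.56 between steroid and RT. That step exceeded the SD of the steroid dogs, 1.21, but not that of the RT dogs, 2.64. Again all 6 groups overlapped.

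**Figure D3:**
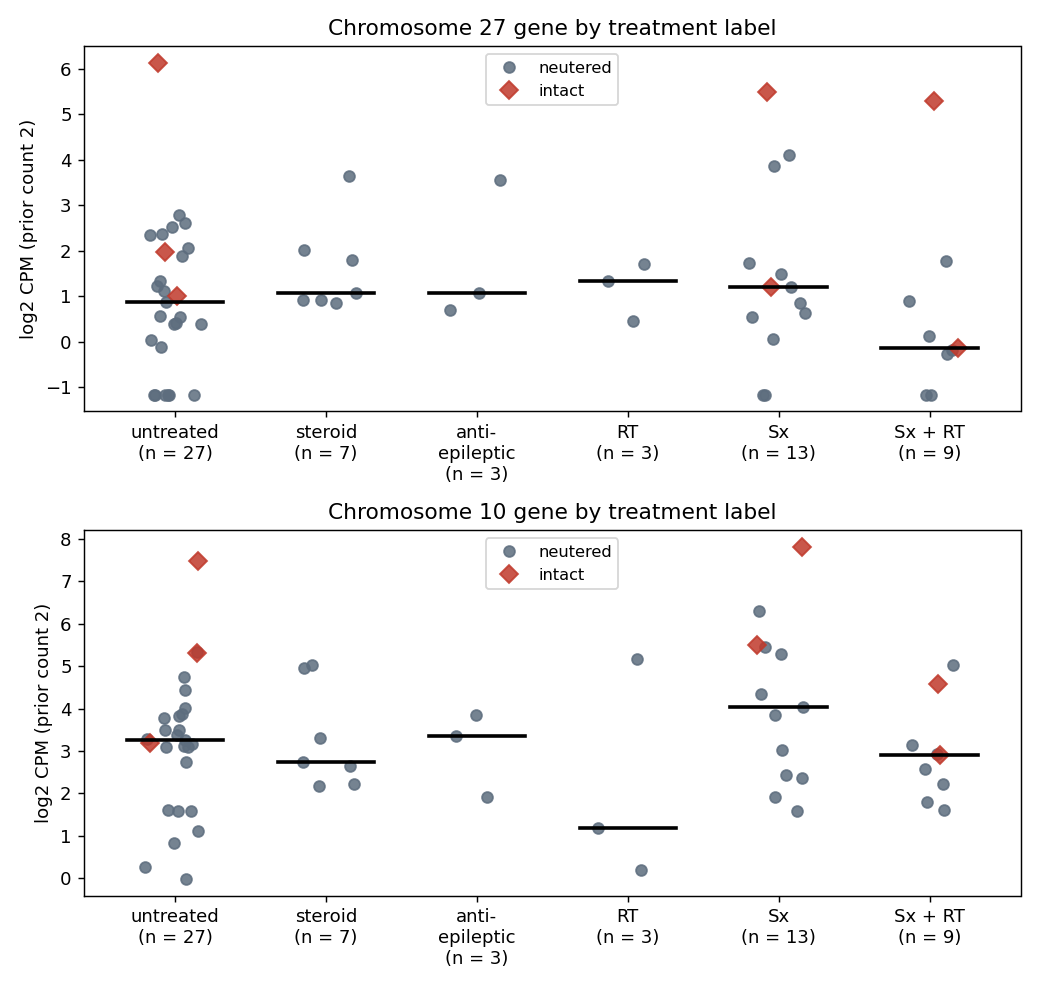
Level of each gene (log2 CPM, prior count 2, vertical axis) in the 6 treatment groups (horizontal axis), 1 point per dog with intact dogs marked and a bar at the group median. The groups overlap for both genes, and the highest point of untreated, Sx and, for the chromosome 27 gene, SxRT is an intact dog.

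With the intact dogs left out, the order in the 3 groups that held them stayed Sx above untreated above SxRT. The chromosome 27 gene had neutered medians of 0.85 in Sx (n = 11), 0.56 in untreated (n = 24) and -0.18 in SxRT (n = 7). The chromosome 10 gene had 3.85, 3.20 and 2.57.

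In the model of all 62 libraries with sex and neuter status, neither gene passed an adjusted p of 0.05 in any of the 5 treatment comparisons, none of which the choice of genes used. Surgery (the mean of Sx and SxRT) against no treatment gave a log2 difference of -0.12 (SE 0.552, adjusted p = 0.911) for the chromosome 27 gene and 0.26 (SE 0.418, adjusted p = 0.720) for the chromosome 10 gene, where 16.8% of all genes were called. The steroid group, labelled with an anti-epileptic drug in all but steroid replicate 4, gave 0.80 (SE 0.778, adjusted p = 0.753) and 0.30 (SE 0.608, adjusted p = 0.895) against no treatment, where 0.256% were called. These differences were smaller than or close to their standard errors. Sample names of all surgical dogs but Sx replicate 1 begin with S, and those of all untreated dogs with N. Surgery can therefore hardly be told apart from whatever that letter stands for, which the labels do not explain.

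The anti-epileptic drug against no treatment gave 1.01 (SE 1.09, adjusted p = 0.999) for the chromosome 27 gene and -0.24 (SE 0.906, adjusted p = 0.999) for the chromosome 10 gene, with 0.00544% of genes called. Without anti-epileptic replicate 2 the first value was -0.19, and without replicate 1 the second was 0.17. Radiotherapy against no treatment gave -0.44 (SE 1.27, adjusted p = 0.979) and 0.37 (SE 0.890, adjusted p = 0.973), with 0.435% called, and without RT replicate 1 the value of the chromosome 10 gene was -2.87. With 3 dogs each, these signs turned on single dogs. The exception was the chromosome 27 gene under radiotherapy, which lay between -0.81 and -0.08 when 1 RT dog was left out. Both radiotherapy signs of the edgeR model ran against the group medians. These were 1.34 in RT and 0.87 in untreated dogs for the chromosome 27 gene, and 1.18 and 3.25 for the chromosome 10 gene. With limma voom the values were 1.37 and -1.91, so neither sign is settled.

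SxRT against Sx gave -1.46 (SE 0.897, adjusted p = 1) for the chromosome 27 gene and -1.63 (SE 0.691, adjusted p = 0.859) for the chromosome 10 gene, where 0.0109% of genes were called. Neither was called. The unadjusted p was 0.109 and 0.0219, and 939 of 18370 genes had an unadjusted p under 0.05.

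Intact dogs were found among untreated and surgical tumours, and in both kinds their mean was higher than that of neutered dogs. For the chromosome 27 gene, untreated dogs had 3.04 ± 2.73 (SD, n = 3) when intact and 0.69 ± 1.37 (SD, n = 24) when neutered, and surgical dogs 2.97 ± 2.86 (SD, n = 4) and 0.68 ± 1.55 (SD, n = 18). For the chromosome 10 gene the values were 5.32 ± 2.14 and 2.88 ± 1.40 in untreated dogs, and 5.19 ± 2.05 and 3.33 ± 1.45 in surgical dogs.

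The difference by neuter status was compared between surgical and untreated tumours by the interaction term of an edgeR fit of those 49 libraries. It was 0.23 (SE 1.61, adjusted p = 1.000) for the chromosome 27 gene and -1.31 (SE 1.16, adjusted p = 1.000) for the chromosome 10 gene. Of 15440 genes 0 were called (0.0%), and 410 had an unadjusted p under 0.05. The standard errors leave room for differences of several log2 units between the settings, and leaving out 1 intact dog moved the first value from -1.61 to 3.51 and the second from -1.98 to 0.33.

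For the 22 surgical dogs the labels give a survival time without a unit. The 14 dogs marked as lost to follow-up were censored, and the other 8 were taken as deaths. The log hazard ratio per log2 unit was 0.06 (SE 0.204, adjusted p = 0.965 in a Cox score test adjusted over all genes) for the chromosome 27 gene and 0.07 (SE 0.250, adjusted p = 0.968) for the chromosome 10 gene. Of all genes 0.12% were called. With 8 deaths the standard errors span hazard ratios on either side of 1.

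The levels of the genes were compared with each other in the 55 neutered dogs, where the difference that chose them plays no part. Pearson's r was 0.12 (permutation p = 0.395) and Spearman's rho 0.085 (permutation p = 0.535). Without Sx replicates 8 and 5, the dogs farthest from the median of the chromosome 27 gene, r was -0.03 (permutation p = 0.856). Within the 24 untreated neutered dogs r was 0.02 (permutation p = 0.916).

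Sample names begin with N or S, which the labels do not explain. Among neutered dogs r was -0.02 in 38 with N names (permutation p = 0.923) and 0.42 in 17 with S names (permutation p = 0.0887). Over all 62 libraries r was 0.31, and over the 7 intact dogs 0.33, both given as descriptions since both genes were chosen on the same contrast of dogs.

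**Figure D4:**
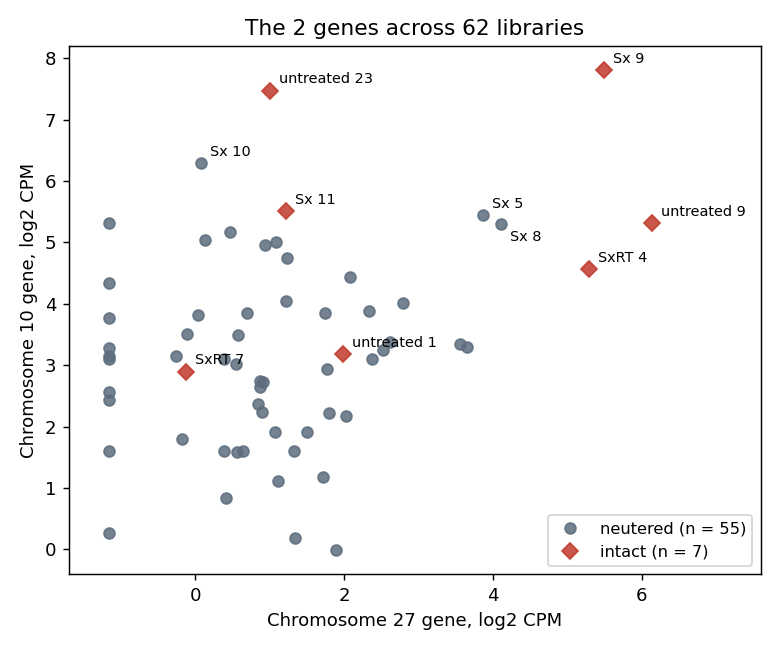
Level of the chromosome 27 gene (log2 CPM, horizontal axis) against the chromosome 10 gene (log2 CPM, vertical axis), 1 point per dog, intact dogs marked and intact and some neutered dogs named. Sx replicate 5 is the only neutered dog at or beyond both intact medians, 1.98 and 5.31, and the neutered dogs are widely scattered (r 0.12, n = 55).

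Each gene was also set against 4 measures of the libraries: total counts, the share of mitochondrial counts, how many of the nonzero counts up to 20 were even, and the first principal component of expression (27.7% of the variance). For the chromosome 27 gene r lay between -0.04 and 0.06 (adjusted permutation p = 0.779 over 8 relations for each). For the chromosome 10 gene it was 0.07 with total counts, -0.10 with the mitochondrial share and -0.17 with the even share, and -0.51 with the component (rho -0.43, adjusted permutation p = 0.00048, n = 62). The component is oriented so that libraries with a higher even share score higher, and the chromosome 10 gene was among the genes it was built from.

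Without the 2 farthest libraries the r with the component was -0.45 (adjusted permutation p = 0.00192). It was -0.66 in the 41 libraries with N names (adjusted permutation p = 8e-05) and 0.21 in the 21 with S names (adjusted permutation p = 0.727), so it did not hold in both sets. These sets nearly match the dogs without and with surgery, so letter and surgery can hardly be told apart here. The component ran from -67.3 over -27.5 to 38.4 in intact and from -73.4 over -8.53 to 128 in neutered dogs. With the component in the model, the fitted difference of intact against neutered was 2.41 for the chromosome 10 gene and 3.39 for the chromosome 27 gene.

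Correlates were ranked by r over the 62 libraries among 13793 genes with a mean level of at least 1, as a description. The gene most like the chromosome 27 gene was ENSCAFG00000005297 at 17:23010308-23688841, with r 0.66, which also had the highest Spearman rho, 0.53. Its r among neutered dogs was 0.52. Its level was 8.10 in Sx replicate 8, 7.33 in untreated replicate 9, 6.61 in Sx replicate 9, 6.25 in SxRT replicate 4 and 4.93 in steroid replicate 5. Those dogs were also the 3 high intact dogs and 2 of the 3 highest neutered dogs of the chromosome 27 gene.

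In the remaining intact dogs ENSCAFG00000005297 lay between -1.16 and 1.26, and its median was 1.26 in intact and 1.31 in neutered dogs. The next gene was ENSCAFG00000006095 at 22:59059519-59092192, with r 0.60, which fell to 0.41 among neutered dogs. Other leading correlates lay on chromosomes 8, 4 and 18 with r from 0.55 to 0.58. The lowest r was -0.70, for a gene at 18:50412272-50507669, and it was -0.54 among neutered dogs.

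The chromosome 10 gene was most like ENSCAFG00000005627 at 24:11657416-11692199, with r 0.64 and rho 0.65, both the highest, and r 0.54 among neutered dogs. ENSCAFG00000013924 at 9:18400039-18419560 followed with r 0.63, and 0.48 among neutered dogs. Genes on chromosomes 6, 10 and 1 followed with r from 0.60 to 0.61. The lowest r was -0.63, for a gene at 29:16078658-16099606.

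**Figure D5:**
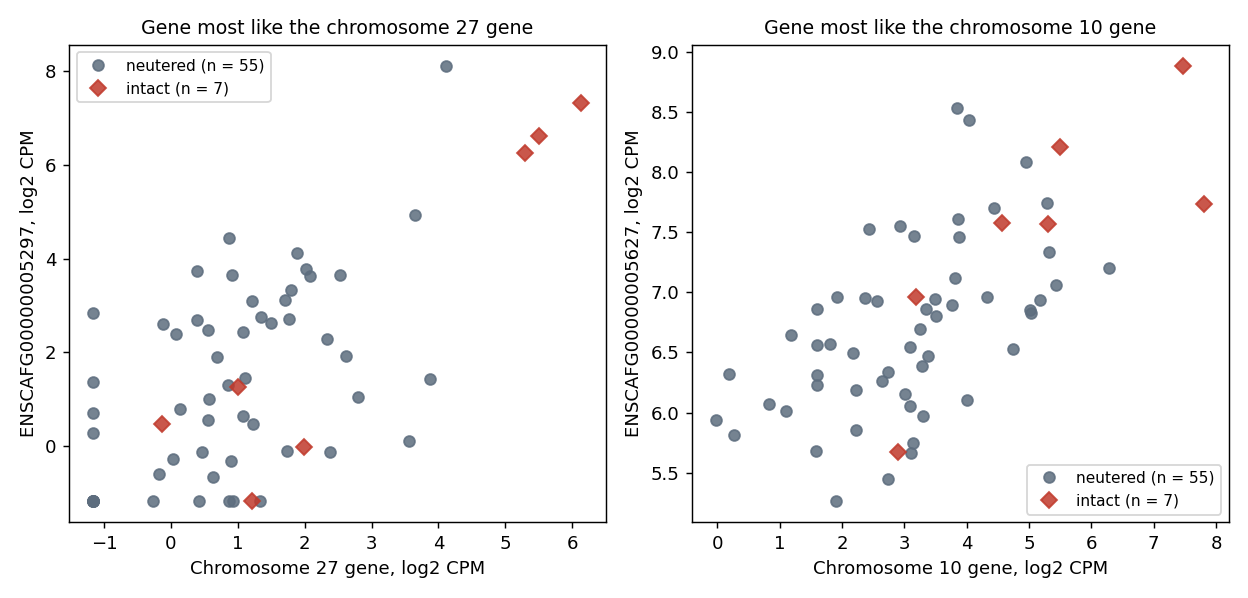
Level of each gene (log2 CPM, horizontal axis) and of its leading correlate (log2 CPM, vertical axis), 1 point per dog with intact dogs marked. For the chromosome 27 gene the points high on both axes are 3 intact dogs and a few neutered dogs (r 0.66, n = 62); for the chromosome 10 gene the points are spread along the whole range (r 0.64, n = 62).

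The highest correlation of each gene lay near the middle of those of all genes. Over all genes compared, the median of a gene's highest r was 0.66, and 49.8% of genes had a lower one than the chromosome 27 gene and 42.3% than the chromosome 10 gene. A median gene had 4 others at r of at least 0.6, against 2 and 4 here. The 100 leading correlates of the genes shared 3, and the other gene ranked 499 among the correlates of the chromosome 27 gene and 1639 among those of the chromosome 10 gene.

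Of the 100 leading correlates, 100 and 98 had a fitted level higher in intact dogs, against 47.9% of all genes. Of them 0 were called, but only 0.0435% of all tested genes were, so that 0 says nothing particular about the correlates. The correlations and the difference come from the same dogs, so these counts are a description. In neutered dogs alone 29 and 43 of the 100 stayed among the leading 100.

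None of the nearest neighbours was called between intact and neutered dogs, where 0.0435% of all tested genes were called. The nearest tested genes of the chromosome 27 gene, at 27:19229925-19579817 and 27:19947481-19962924, differed between intact and neutered dogs by 0.36 (SE 0.232) and 0.09 (SE 0.251) on the log2 scale, with r to it of 0.31 and 0.35. Those of the chromosome 10 gene, at 10:1370350-1504017 and 10:1576142-1578772, differed by -0.12 (SE 0.166) and 0.21 (SE 0.659), with r of 0.05 and 0.17. The last of these starts 160 bases past the chromosome 10 gene, on the other strand. Within 0.5 Mb on each side lay 8 and 36 tested genes, of which 6 and 17 were higher in intact dogs, against 46.6% of all tested genes. Their median log2 differences were 0.13 and -0.04, against -0.04 over all genes. Of these genes 0 were called, which at the share called over all genes says nothing particular about either region.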

How the data were processed

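Total RNA of 62 canine meningiomas was analysed from raw counts per gene, which the authors deposited in a single table. Per the file headers, featureCounts 2.0.4 counted primary alignments over exons of Ensembl release 100 on CanFam3.1, unstranded, with each read of a pair counted: 61.0% to 88.9% of a library's nonzero counts were even, so precision is lower than totals show. The submitters' processing notes name STAR, DESeq2 and canFam3, without versions. The file holds 30951 identifiers without names. The table of RefSeq names (UU_Cfam_GSD_1.0) matched 0 of them, so lists of cell type, hormone receptor and cell cycle genes were not analysed here.

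filterByExpr, given the treatment groups, kept 18370 genes, and TMM factors ran from 0.556 to 1.24. edgeR 4.0.16 (R 4.3.3) quasi-likelihood models held treatment group, sex and neuter status, with p-values adjusted by Benjamini-Hochberg over all genes. The tests set each difference against the spread between dogs. Survival used a Cox score test (survival 3.8.3), and relations 100000 permutations, 2-sided (scipy 1.17.1). DESeq2 1.42.0 and limma 3.58.1 served as alternatives. The scripts were tested on simulated data. Named genes were the 2 chosen genes, the 5 highest and 1 lowest correlate of each (mean log2 CPM 1 or more, the 2 highest by identifier), and the nearest tested gene on each side. The members and lists were chosen with earlier results of these data known.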

Additional observations from a re-analysis of the deposited data

Results flagged for a closer look

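Each treatment or neuter group of 4 to 10 dogs was checked for a library far from the others, by the gap to its nearest neighbour as a share of the group's range (Dixon's 95% limit). The highest and the lowest dog of each group were checked in turn. Of 12 such checks 2 exceeded the limit, both for the chromosome 27 gene. Chance exceeds it in about 1 of 20 groups. The levels of intact dogs chose the genes, so that rate does not apply to groups that hold them, SxRT among them. Steroid replicate 5, neutered, lay at 3.65 where the other six steroid dogs lay between 0.86 and 2.03 (share 0.582, limit 0.568); that library held 12063982 counts, of which 46.7% were mitochondrial. SxRT replicate 4, intact, lay at 5.30 where the other eight SxRT dogs lay between -1.16 and 1.77 (share 0.546, limit 0.493).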

How the results depend on the processing

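Of 202 alternatives over 27 results, 159 kept direction and side of the threshold, 15 kept the direction but no longer passed it, 27 turned the direction and 1 came to pass it; the cause was not tested. The turned values missed the threshold before and after, except the chromosome 10 gene's relation to the component, which passed before and missed it in S names. The intact difference chose the genes, so its course over the alternatives is a description and not support for it. It kept its sign in 18 of 18 alternatives for each gene. It was called in 10 of them for the chromosome 27 gene and in 11 for the chromosome 10 gene. It was no longer called for the chromosome 27 gene with limma voom (2.57), in males only (3.65), in the 3 groups that held intact dogs (3.47) and in names numbered 11 to 16 (4.05) or 17 to 22 (4.33), nor for the chromosome 10 gene in males only (2.69) and in those names (1.16 and 2.66). Leaving out single intact dogs gave 2.84 to 3.62, with the call lost for untreated replicate 9, Sx replicate 9 and SxRT replicate 4, and 1.73 to 2.65, with it lost for those and untreated replicate 23. Genes called for it numbered 8 in the main model, 45 with no low count filter, 32 with DESeq2, 13 with limma voom, 24 with the component as a covariate, 2 in the 3 groups that held intact dogs and 0 in males only. Genes called ran from 286 to 4030 for surgery (main 3078), 1 to 281 for the steroid (47), 0 to 31 for the anti-epileptic drug (1), 23 to 303 for RT (80), 0 to 39 for SxRT against Sx (2) and 0 to 203 for sex (9).

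With limma voom the chromosome 10 gene turned to -0.18 for surgery, -0.45 for the steroid, 0.29 for the anti-epileptic drug and -1.91 for RT, and the chromosome 27 gene to 1.37 for RT and 0.26 for sex. With the component as a covariate the chromosome 10 gene gave -0.47 for surgery and 0.18 for the anti-epileptic drug, and with the even share the chromosome 27 gene gave 0.051 for surgery. Leaving out single dogs gave -0.19 to 1.40 (chromosome 27 gene) and -0.68 to 0.17 (chromosome 10 gene) for the anti-epileptic drug, -2.87 to 0.92 for RT (chromosome 10 gene), and -1.61 to 3.51 and -1.98 to 0.33 for the interaction. With radiotherapy as a stratum the log hazard ratios were -0.000266 and -0.123.

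The r of the genes with each other was 0.306 over all 62 libraries, -0.0161 with N names and -0.0255 without the 2 farthest dogs. With N names, the chromosome 27 gene had r 0.140 with total counts, 0.00447 with the mitochondrial share and -0.0109 with the even share, and with S names the chromosome 10 gene had r -0.275 with total counts, 0.104 with the even share and 0.205 with the component. Leaving out the 2 farthest libraries of the library measures was added after seeing the data.

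For the steroid DESeq2 gave the chromosome 27 gene no adjusted p, and with only Sx and SxRT dogs that gene did not pass the low count filter. No paired analysis was possible because the labels give no replicate numbers. Depth limits the chromosome 27 gene most, with fewer than 10 counts in 39 libraries.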

Other observations

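After the levels were seen, the breed labels of the intact dogs were read beside them. The 3 intact dogs with a high chromosome 27 gene were a Golden Retriever and 2 Labrador Retrievers, at 6.14, 5.50 and 5.30, and the 4 intact dogs of other breeds lay between -0.13 and 1.98. In 9 neutered dogs of those 2 breeds the gene ran from -1.16 over 0.87 to 2.62. For the chromosome 10 gene the 3 intact retrievers lay at 5.31, 7.81 and 4.57, and the 9 neutered ones ran from 2.22 over 3.09 to 4.74. For the chromosome 27 gene the 3 intact retrievers were the 3 dogs above the highest of all 55 neutered dogs. That they lay above the 9 neutered retrievers follows from this and adds nothing about breed. For the chromosome 10 gene the groups overlapped. With 3 dogs chosen by their values this is a description, and no test was made.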
